A study of Mus musculus with 3 samples.

Results

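Growth arrest and proliferation genes of the mouse stomach were described as 10 genes measured by 24 probe sets, out of 18194 genes and 34958 probe sets that name 1 gene. They were taken by gene symbol. The 6 growth arrest genes were Cdkn1a, Cdkn1b, Btg1, Btg2, Mxd1 and Bnip3, and the 4 proliferation genes were Mki67, Cdc20, Rrm1 and Tpx2. The genes were picked with their values on these arrays already known, so those values are a description and carry no test.

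Pit, parietal and zymogenic cells each gave RNA for 1 Affymetrix array of the type Mouse Genome 430 2.0, and a value given below for a cell type is that of its array. Pit cells are mucous cells at the top of a gastric unit, parietal cells secrete acid, and zymogenic (chief) cells in the base secrete pepsinogen. All came from mouse stomach by laser-capture microdissection, and no genetic change or treatment is labelled. The labels state no strain, sex or age. Pit and parietal cells were taken from the same gastric units, the pit cells from a layer 2 to 3 cells deep at the apex and the parietal cells from the pit zone, while zymogenic cells were taken on other slides, so that the zymogenic lineage and its slides cannot be told apart. Each array carried amplified RNA pooled from 4 to 5 mice, so there is no replicate error and every difference below describes these 3 arrays.

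Cells of the gastric epithelium are born from dividing progenitors in the isthmus of each unit, and the mature lineages largely stop dividing as they differentiate. Cell cycle exit is carried by proteins that block the cyclin-dependent kinases, that oppose MYC at its target genes, or that speed the decay of growth-related mRNA. Markers of dividing cells code for proteins of DNA synthesis, chromosome segregation and the spindle.

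Promoter sequence was at hand for 9 of the 10 genes, and 6 are shown. Cdkn1a, Btg1, Mxd1 and Bnip3 are shown because they were the growth arrest genes highest in pit cells, and Mki67 and Cdc20 because they stand for the dividing cell. Each stretch is from RefSeq (GRCm38.p6), runs 5′ to 3′ on the strand of the gene and lies within the 250 bases before a transcription start, without bases inside the annotated gene. Cdkn1a has more than 1 annotated start, and the stretch belongs to the outermost.
Cdkn1a, chr17:29090729-29090978, plus strand: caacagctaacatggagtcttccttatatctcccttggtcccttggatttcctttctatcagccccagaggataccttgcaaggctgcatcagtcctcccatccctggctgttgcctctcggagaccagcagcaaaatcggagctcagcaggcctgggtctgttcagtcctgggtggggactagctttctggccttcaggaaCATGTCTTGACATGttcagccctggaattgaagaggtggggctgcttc
Btg1, chr10:96616751-96617000, plus strand: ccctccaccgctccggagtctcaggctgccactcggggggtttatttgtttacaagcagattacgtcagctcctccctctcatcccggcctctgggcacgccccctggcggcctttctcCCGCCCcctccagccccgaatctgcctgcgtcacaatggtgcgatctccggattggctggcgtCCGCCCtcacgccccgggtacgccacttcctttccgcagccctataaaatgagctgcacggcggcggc
Mxd1, chr6:86669235-86669409, minus strand: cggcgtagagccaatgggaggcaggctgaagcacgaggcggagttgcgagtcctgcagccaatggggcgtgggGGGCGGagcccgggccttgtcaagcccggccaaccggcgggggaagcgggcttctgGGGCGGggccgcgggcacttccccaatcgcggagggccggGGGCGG
Bnip3, chr7:138909507-138909756, minus strand: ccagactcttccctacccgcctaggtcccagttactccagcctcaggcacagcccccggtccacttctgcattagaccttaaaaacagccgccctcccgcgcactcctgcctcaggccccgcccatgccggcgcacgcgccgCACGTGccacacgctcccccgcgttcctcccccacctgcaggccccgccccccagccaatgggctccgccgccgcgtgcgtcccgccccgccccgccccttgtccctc
Mki67, chr7:135716451-135716629, minus strand: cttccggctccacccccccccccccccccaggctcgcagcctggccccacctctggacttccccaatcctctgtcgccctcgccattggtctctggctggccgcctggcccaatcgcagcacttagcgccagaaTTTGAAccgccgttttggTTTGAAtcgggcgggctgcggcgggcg
Cdc20, chr4:118437344-118437593, minus strand: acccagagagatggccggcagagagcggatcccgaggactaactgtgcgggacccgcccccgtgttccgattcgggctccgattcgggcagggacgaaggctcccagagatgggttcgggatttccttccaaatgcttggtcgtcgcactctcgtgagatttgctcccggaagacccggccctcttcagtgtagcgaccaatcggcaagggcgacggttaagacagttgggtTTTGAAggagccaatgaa

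Motifs were searched on both strands in the full 250 bases. Capitals in the Cdkn1a stretch mark CATGNNNNNNCATG, the spacing of the paired core of a p53 response element, a motif chosen after the sequence was seen. It occurs in 0.49% of 32851 windows of the same length. Capitals in the Btg1 and Mxd1 stretches mark GGGCGG, the GC box, found in 32.7% of all windows. Capitals in the Bnip3 stretch mark ACGTG, the core of a hypoxia response element, found in 16.6% of windows, where matches on both strands overlap as CACGTG, an E-box that MYC and MXD proteins can bind and that 6.02% of windows hold. Capitals in the Mki67 and Cdc20 stretches mark TTTGAA, the cell cycle genes homology region, found in 16.0% of windows. GGGCGG is marked in Btg1 and Mxd1 alone but was also in the windows of Cdkn1b, Btg2, Bnip3, Mki67 and Cdc20, and not in that of Rrm1 or the outermost one of Cdkn1a. CCAAT, the CCAAT box, is not marked; it was in each window except those of Cdkn1a, and 33.8% of all windows hold it. These matches describe letters in the window and say nothing about which factors were bound.

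A probe set was called above background when its value exceeded a detection floor of 23.3. The floor was taken from 80 probe sets of odorant and pheromone receptors, as the largest of their 95th percentiles on the 3 arrays. Values are intensities in arbitrary units on a linear scale. Values below the floor were raised to it before a ratio was taken, so that a fold against them is a lower bound. A gene with several probe sets was represented by that of highest mean. A gene counted as higher on an array when it was at least 2-fold above both other arrays. Where a gene had several probe sets above the floor, their log2 ratios between arrays scattered around the gene's mean ratio with an SD of 0.48. This measures disagreement between probe sets on the same arrays, and not error between arrays or animals.

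Pit cells held the highest values of 4 of the 6 growth arrest genes, Cdkn1a, Btg1, Mxd1 and Bnip3, each by 4-fold or more. Among all 4138 genes above the floor on any array, 5.78% exceeded both other lineages in pit cells by 2-fold or more and 0.894% by 4-fold or more. Because the genes were chosen with these values in view, nothing is read from that contrast. In parietal cells 0 of the 6 genes were above both others, where the background was 7.49%, and in zymogenic cells 0 of 6, where it was 6.91%. The median log2 ratio over all 6 genes was 2.32 for pit minus parietal, 2.34 for pit minus zymogenic and 0.019 for parietal minus zymogenic, while over all genes above the floor on any array these medians were 0 for pit minus parietal, 0.0011 for pit minus zymogenic and 0.14 for parietal minus zymogenic. Scaled to the spiked BioB and BioC controls, which averaged 303 in parietal cells against 712 in pit cells and 711 in zymogenic cells, the median for pit minus parietal was 1.10 and the count of 4 held. The ratio of the 3′ to the 5′ probe set of actin, a sign of RNA quality, was 9.04 in pit cells, 26.1 in parietal cells and 14.7 in zymogenic cells, while that of Gapdh was 6.66 in pit cells, 8.84 in parietal cells and 3.88 in zymogenic cells. Their part in these differences was not tested. In pooled tissue RNA, fewer cells expressing a gene and less of its RNA per cell cannot be told apart.

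**Figure D1:**
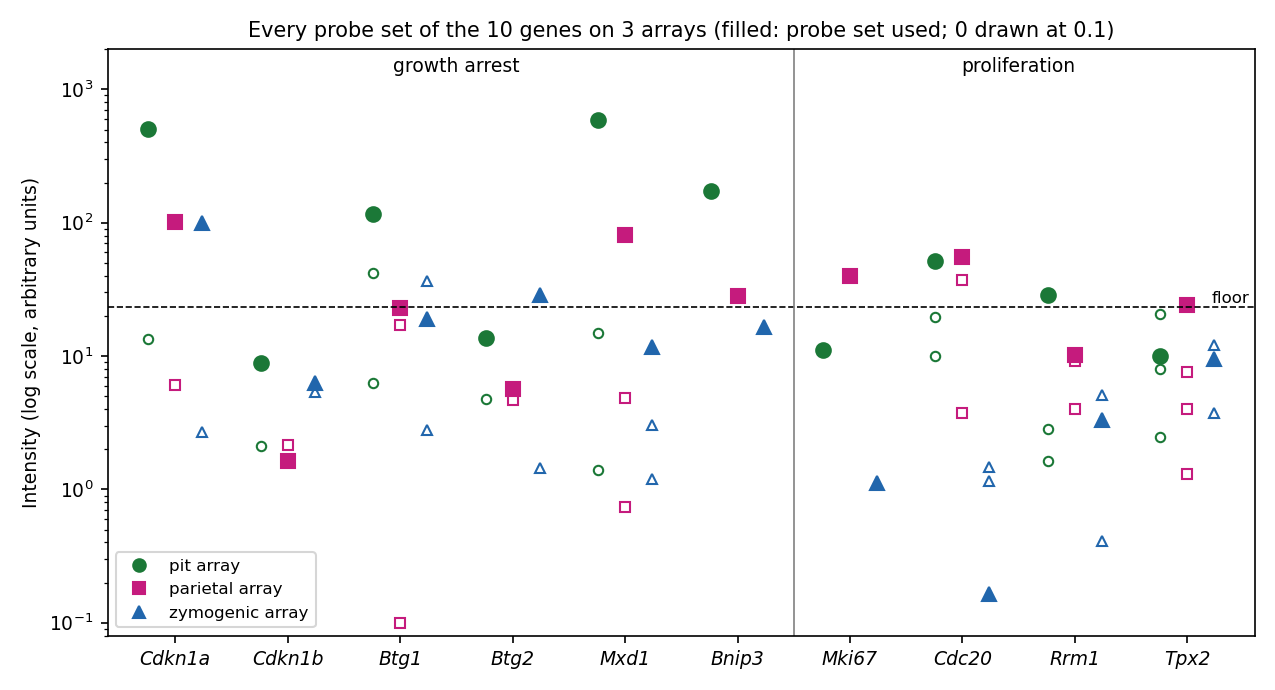
Intensity (log axis, arbitrary units) of all 24 probe sets of the 10 genes on the pit, parietal and zymogenic arrays, with filled symbols for the probe set used for each gene and a dashed line at the floor of 23.3; the 1 value of 0 is drawn at 0.1. Cdkn1a, Btg1, Mxd1 and Bnip3 stand well above the other arrays in pit cells, and 13 probe sets lie under the floor on every array.

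Cdkn1a codes for p21, an inhibitor of cyclin-dependent kinases and a classic target of p53. Its brighter probe set read 508 in pit cells, against 102 in parietal cells and 99.2 in zymogenic cells. All 3 values were above the floor, and the parietal and zymogenic values lay within the scatter of each other, with a log2 difference of 0.037. The pit value was 4.99-fold above the parietal and 5.12-fold above the zymogenic one. The other probe set was under the floor on every array, at 13.5 in pit cells, 6.05 in parietal cells and 2.70 in zymogenic cells, and could not show a difference. Cdkn1b, which codes for the related inhibitor p27, was not above the floor on any array with either of its probe sets, the higher of which read 8.83 in pit cells, 1.64 in parietal cells and 6.29 in zymogenic cells. The array therefore gives no ratio for p27.

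Mxd1 codes for a partner of MAX that represses genes that MYC activates and rises in many epithelia as cells differentiate. It read 585 in pit cells, against 81.5 in parietal cells and 11.7 in zymogenic cells. The arrays were ordered pit, parietal, zymogenic, and the zymogenic value was under the floor. The pit value was 7.17-fold above the parietal value and at least 25.1-fold above the zymogenic one, and by its excess over the next brightest array it ranked 9 of 4138 genes. The parietal value was at least 3.50-fold above the zymogenic one. Both further probe sets of Mxd1 lay under the floor on every array.

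Bnip3 codes for a protein of the outer mitochondrial membrane that serves as a receptor for mitophagy and is a known target of the hypoxia-inducible factor; it is grouped here with genes of terminal differentiation and does not itself act on the cell cycle machinery. It read 173 in pit cells, against 28.3 in parietal cells and 16.5 in zymogenic cells. The parietal value was just above the floor and the zymogenic value below it. The pit value was 6.10-fold above the parietal one and at least 7.43-fold above the zymogenic one, with a rank of 12. Bnip3 has 1 probe set, so no further probe set could be set beside it.

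Btg1 and Btg2 code for antiproliferative adaptors that bring the CCR4-NOT deadenylase to mRNA. Btg1 read 116 in pit cells, against 22.8 in parietal cells and 18.9 in zymogenic cells, both under the floor. The pit value was at least 5.01-fold above each. A further probe set also read higher in pit than in parietal cells, but close to the pit value in zymogenic cells, with 42.0 in pit cells, against 17.1 in parietal cells and 36.7 in zymogenic cells. The difference between pit and zymogenic cells in Btg1 thus rested on the choice of probe set, and the probe set left when only transcript-specific ones were used was under the floor throughout. Btg2 was above the floor only in zymogenic cells, at 28.8, against 13.7 in pit cells and 5.65 in parietal cells. Its ratio of at least 1.24-fold to the floor was smaller than the scatter between probe sets.

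**Figure D2:**
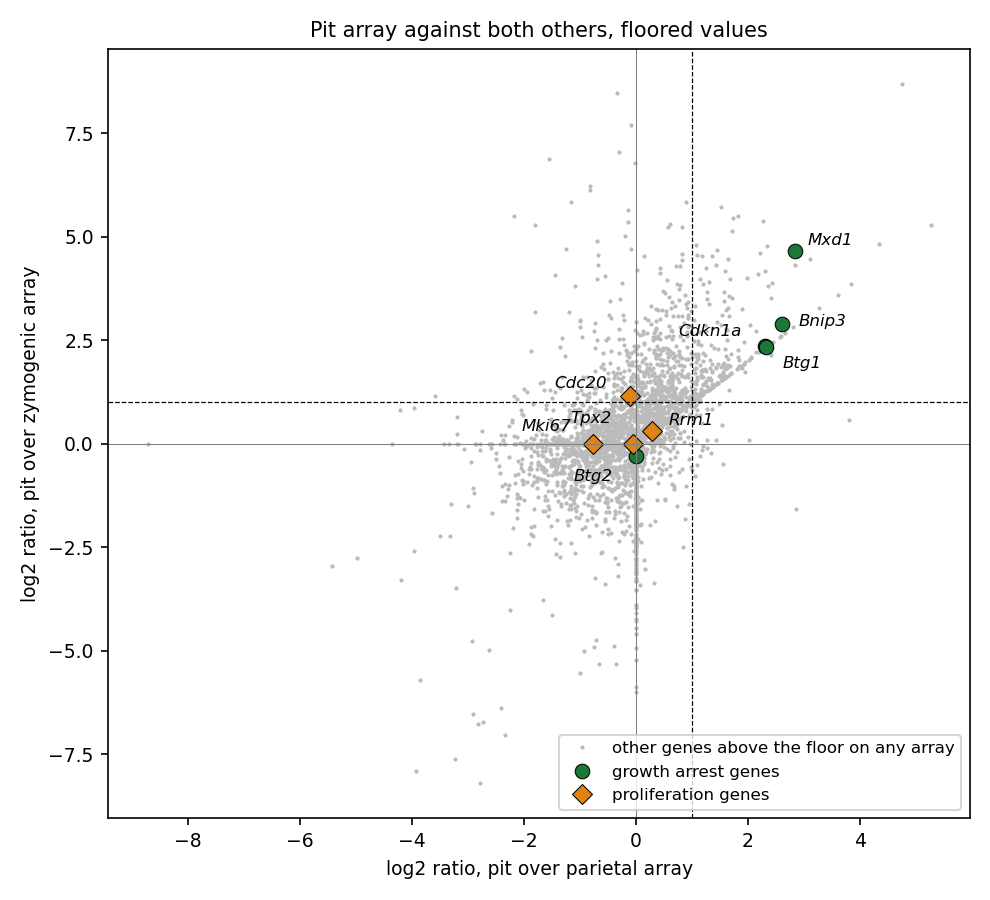
Log2 ratio of the pit to the parietal array (x axis) and of the pit to the zymogenic array (y axis) for the 4138 genes above the floor on any array, from floored values, with dashed lines at 2-fold; Cdkn1b was under the floor everywhere and is not drawn. Cdkn1a, Btg1, Bnip3 and Mxd1 lie beyond 2-fold on both axes, and the 4 proliferation genes and Btg2 do not.

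The proliferation genes read at most 55.1 on any array, and 0 of 4 were higher on any array than in both others. Above the floor were 2 of 4 in pit cells, 3 in parietal cells and 0 in zymogenic cells, where the share of all genes was 14.4% in pit cells, 15.4% in parietal cells and 12.6% in zymogenic cells. The median log2 ratio over the 4 was -0.077 for pit minus parietal, 0.15 for pit minus zymogenic and 0.41 for parietal minus zymogenic.

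Mki67 codes for Ki-67, a protein that coats mitotic chromosomes and is the usual marker of cycling cells. It read 39.6 in parietal cells, against 11.2 in pit cells and 1.12 in zymogenic cells. It was above the floor in parietal cells alone, by at least 1.70-fold, a difference of 0.77 on the log2 scale that exceeds the SD of 0.48 between probe sets but not the 2-fold threshold. Mki67 has 1 probe set.

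Cdc20 codes for the activator of the anaphase-promoting complex (APC/C) in mitosis. It read 55.1 in parietal cells, against 51.3 in pit cells and 0.16 in zymogenic cells. The parietal and pit values differed by less than the scatter, while the parietal value was at least 2.37-fold and the pit value at least 2.21-fold above the zymogenic one. It thus counted as lower in zymogenic cells than in both others, as did 11.1% of all genes. Both Cdc20 probe sets above the floor have names that mark a possible cross-match to other genes. The probe set without that mark read 9.98 in pit cells, 3.75 in parietal cells and 1.15 in zymogenic cells, all under the floor.

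Rrm1 codes for the large subunit of ribonucleotide reductase, which makes the building blocks of DNA. It was above the floor in pit cells alone, at 28.5, against 10.2 in parietal cells and 3.31 in zymogenic cells. Tpx2 codes for a spindle protein that activates Aurora kinase A. It was above the floor in parietal cells alone, at 24.1, against 10.1 in pit cells and 9.46 in zymogenic cells. Ratios of at least 1.23-fold for Rrm1 and at least 1.04-fold for Tpx2 are within the scatter between probe sets, and the further probe sets of both genes, 2 for Rrm1 and 3 for Tpx2, were under the floor on every array. Of those 3 dim probe sets of Tpx2, 2 read highest in zymogenic cells and 1 in pit cells.

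**Figure D3:**
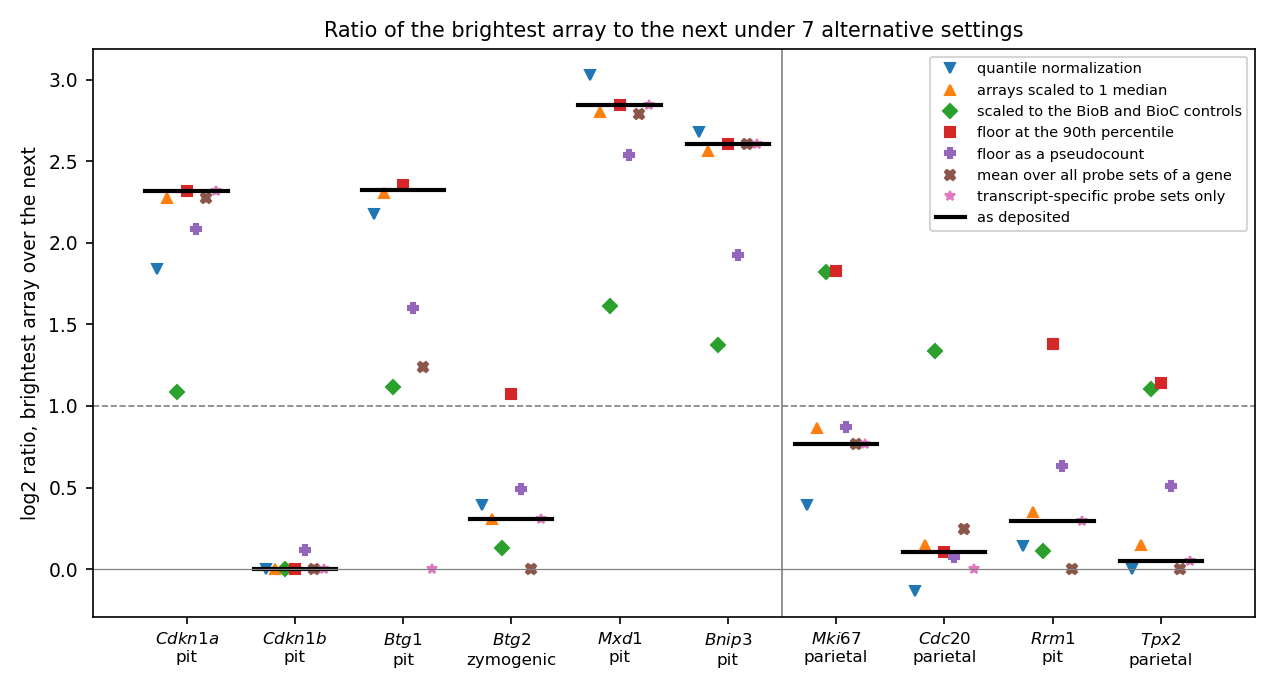
Log2 ratio of the brightest array, named under each gene, to the next brightest, from the values as deposited (black bars) and under 7 alternative settings (symbols), with a dashed line at 2-fold. Cdkn1a, Mxd1 and Bnip3 stay above 2-fold in each setting drawn, Btg1 falls to 0 with transcript-specific probe sets, and the proliferation genes and Btg2 pass 2-fold only with the controls or the lower floor. The floor of 868, above which no member lay, is not drawn.

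The families of these genes were examined next. Among all genes, 22.7% were above the floor on any array. Of 7 CDK inhibitors of the INK4 and CIP/KIP classes, Cdkn1a was the 1 above the floor on any array. Of 5 BTG and TOB genes on the array, Btg1 and Btg2 were. In the MYC, MAX and MXD network, 3 of 11 genes were above the floor, and all are MXD repressors. Mxd4 read 89.4 in zymogenic cells, against 30.7 in pit cells and 43.3 in parietal cells, which made it 2.06-fold higher there than in parietal cells. A further probe set of Mxd4 went the other way, at 23.6 in zymogenic cells, against 40.0 in pit cells and 56.9 in parietal cells. Mxd3, which in mouse is known from proliferating progenitors, read 29.9 in zymogenic cells, against 81.1 in pit cells and 60.0 in parietal cells. Myc, Mycn and Mycl were under the floor on all arrays.

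Among 12 genes of mitophagy and autophagy, 7 were above the floor, beside 22.7% of all genes, and Bnip3 was the 1 called in either direction, beside the 5.78% of genes called higher in pit cells. Gabarap, an autophagosome protein, read 175 in pit cells, against 128 in parietal cells and 102 in zymogenic cells, a spread of under 2-fold. Of 22 p53 targets, 3 were above the floor in pit cells, where the share of all genes was 14.4%, 6 in parietal cells (15.4%) and 5 in zymogenic cells (12.6%). Besides Cdkn1a, Trp53inp1 was called, at 131 in zymogenic cells, against 0.013 in pit cells and 5.15 in parietal cells, at least 5.64-fold; its further probe set was under the floor throughout. The p53 target Phlda3 read 38.8 in pit cells, against 23.4 in parietal cells and 18.5 in zymogenic cells, and was not called. Among the remaining p53 targets above the floor on any array, Ei24, Aen and Tigar read highest in parietal cells. Ccng1 and Btg2 read highest in zymogenic cells.

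Of 19 quiescence and arrest factors, 8 were above the floor in pit cells, 8 in parietal cells and 4 in zymogenic cells. The share of all genes was 14.4% in pit cells, 15.4% in parietal cells and 12.6% in zymogenic cells. Ndrg1, a differentiation gene that is also induced by hypoxia, read 563 in pit cells, against 121 in parietal cells and 3.27 in zymogenic cells, 4.64-fold above the parietal array. A further probe set of Ndrg1 read 110 in pit cells, against 28.1 in parietal cells and 0.29 in zymogenic cells. Neither of these probe sets is transcript-specific, and the remaining ones of Ndrg1 were under the floor on every array. Gadd45b, a stress-induced growth arrest gene, read 128 in pit cells, against 33.5 in parietal cells and 13.2 in zymogenic cells, 3.83-fold above the parietal array. Ndrg1 and Gadd45b were the factors called higher in pit cells, as were 5.78% of all genes above the floor on any array. With transcript-specific probe sets alone, 0 of the factors were called higher in pit cells. In zymogenic cells, 3 of the 9 factors above the floor on any array were lower than in both others. The background for that call was 11.1%. Klf4, a factor of epithelial differentiation, read 9.23 there, against 159 in pit cells and 194 in parietal cells. Txnip read 65.5 in zymogenic cells, against 243 in pit cells and 179 in parietal cells, and Ndrg1 was the other. Cebpd was lower in pit cells than elsewhere, as were 2.61% of all genes, at 11.6, against 48.8 in parietal cells and 71.4 in zymogenic cells.

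The lists pooled as the arrest side also hold Myc, Mycn, Mycl, Max and the genes of mitophagy and autophagy. They thus reach beyond genes that restrain division. Taking all arrest-side lists without the 6 members, 23 of 67 genes were above the floor on any array, beside 22.7% of all genes. Of these, 2 were higher in pit cells than in both others, 0 in parietal cells and 2 in zymogenic cells, where the background was 5.78% in pit cells, 7.49% in parietal cells and 6.91% in zymogenic cells. Their median log2 ratio was 0 for pit minus parietal and 0.22 for both pit minus zymogenic and parietal minus zymogenic. 

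On the side of division, 21 of 99 genes other than the 4 members were above the floor on any array, beside 22.7% of all genes. The next counts are of whole lists and include members. Of 32 genes of S phase and replication, 3, with Rrm1 among them, were above the floor in pit cells, 2 in parietal cells and 3 in zymogenic cells. Of 40 genes of G2 and mitosis, there were 2 in pit cells, 5 in parietal cells and 1 in zymogenic cells. Cdc20 was 1 of those in pit cells, and Mki67, Cdc20 and Tpx2 were 3 of those in parietal cells. No count in either list reached the share of all genes above the floor on that array. Cdc45, a replication factor, was the 1 S phase gene lower in parietal cells than elsewhere, as were 0.387% of all genes, at 37.6, against 75.6 in pit cells and 118 in zymogenic cells. Top2a, Cdk1, Aurka, Plk1, Pcna and Mcm2 to Mcm7 were under the floor on all 3 arrays. In parietal cells Cdca8, a subunit of the chromosomal passenger complex, read 38.1, against 19.5 in pit cells and 1.32 in zymogenic cells. Cdca3 read 26.9 in parietal cells, against 11.3 in pit cells and 9.07 in zymogenic cells, and neither gene was called. Members aside, the other genes of G2 and mitosis above the floor were Mad2l1 and Hmmr. Mad2l1 read 25.3 in zymogenic cells, against 1.95 in pit cells and 11.3 in parietal cells. Hmmr read 23.3 in pit cells, close to the floor, against 17.0 in parietal cells and 18.0 in zymogenic cells.

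**Figure D4:**
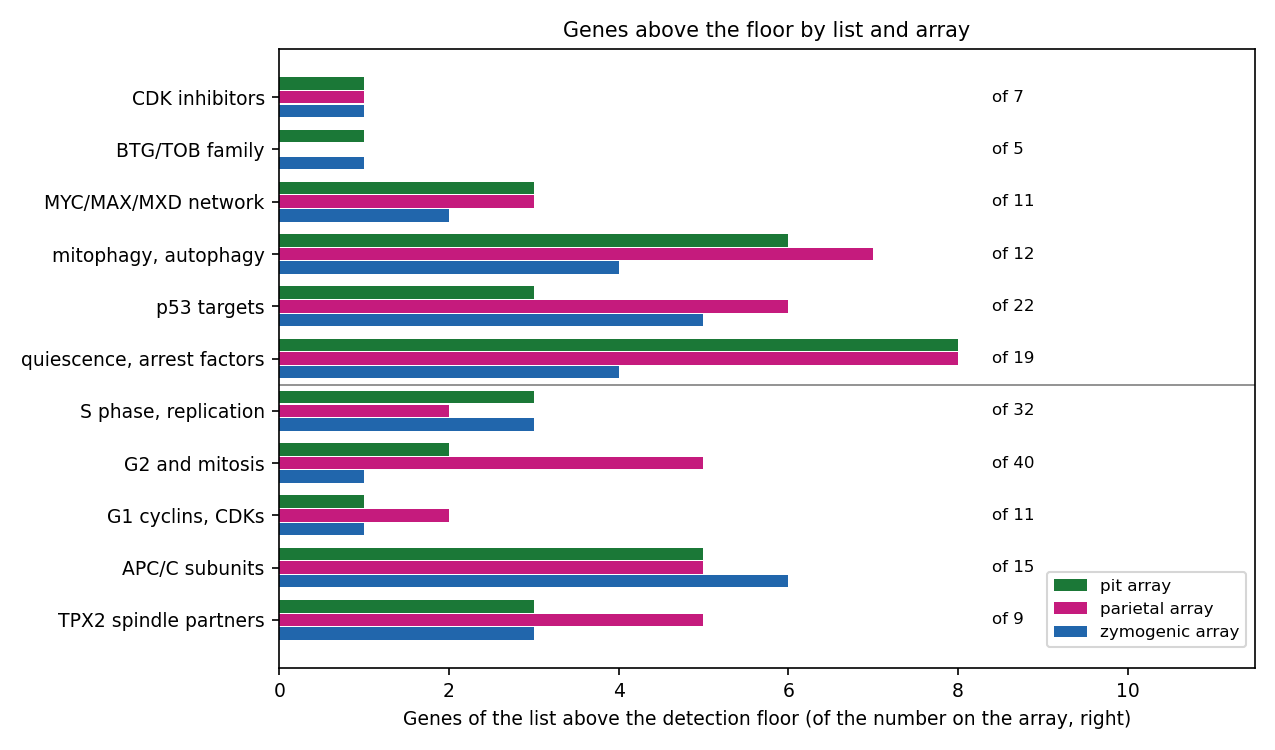
Number of genes above the floor (x axis) on the pit, parietal and zymogenic arrays for 6 lists linked to arrest (above the line) and 5 linked to division (below it), with the number of genes on the array at the right. Counts for S phase genes run from 2 to 3 of 32 and for genes of G2 and mitosis from 1 to 5 of 40.

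Of the 21 division-side genes above the floor, members left out, 4 were called higher in zymogenic cells, 1 in parietal cells and 0 in pit cells. Among all 4138 genes above the floor on any array, the background was 6.91% for zymogenic, 7.49% for parietal and 5.78% for pit cells. The counts of called division-side genes depended on the scaling. With the BioB and BioC controls they were 1 in zymogenic cells and 11 in parietal cells. The zymogenic count was also 1 with the mean over probe sets or a 4-fold threshold. Orc1, a subunit of the origin recognition complex, read 112 in zymogenic cells, against 0.779 in pit cells and 0.535 in parietal cells. Ccnd2, a G1 cyclin, read 146 in zymogenic cells, against 16.9 in pit cells and 49.1 in parietal cells. It was thus also lower in pit cells than elsewhere. Another Ccnd2 probe set read 33.0 in zymogenic cells, against 2.84 in pit cells and 13.4 in parietal cells. The remaining ones were under the floor on every array. With the mean over probe sets, Ccnd2 was not called higher in zymogenic cells. Numa1, a spindle pole protein, read 91.7 in zymogenic cells, against 17.3 in pit cells and 25.2 in parietal cells, and the nuclear import receptor Kpnb1 read 48.3 in zymogenic cells, against 15.2 in pit cells and 21.8 in parietal cells. A further probe set of Kpnb1 read 13.9 in zymogenic cells, against 25.3 in pit cells and 24.4 in parietal cells. In parietal cells, the GTPase Ran, which acts in nuclear transport and spindle assembly, read 616, against 175 in pit cells and 161 in zymogenic cells. Further Ran probe sets above the floor also read highest in parietal cells. All Ran probe sets above the floor have names that mark a possible cross-match to other genes. The Ran probe set without that mark read 3.04 in pit cells, 2.45 in parietal cells and 2.14 in zymogenic cells, all under the floor.

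Subunits of the APC/C, the ubiquitin ligase that Cdc20 activates, were above the floor in 6 of 15 cases, beside 22.7% of all genes. Of these 6, Cdc26 and Anapc11 were lower in zymogenic cells than in both others, where the background was 11.1%. Cdc26 read 89.0 there, against 4422 in pit cells and 4859 in parietal cells. Anapc11 read 25.7 in zymogenic cells, against 62.3 in pit cells and 61.2 in parietal cells. Anapc5 was lower in pit cells than elsewhere, where the background was 2.61%. It read 43.6 in pit cells, against 97.6 in parietal cells and 89.3 in zymogenic cells. Rcc1, the exchange factor for Ran, read 0 in zymogenic cells, against 182 in pit cells and 360 in parietal cells. Every further probe set of Orc1, Cdc45, Cdc26, Anapc11, Gadd45b, Cebpd, Txnip and Mxd3 was under the floor on all 3 arrays.

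Markers of the lineages and of other cells were set beside these values. Pit markers were above the floor in 10 of 11 cases in pit cells, 10 in parietal cells and 3 in zymogenic cells, with summed intensities of 16464 in pit cells, 22385 in parietal cells and 239 in zymogenic cells. Gkn1 and Gkn2 made up most of these sums in pit and parietal cells. Krt20, Capn8 and Muc5ac were called higher in pit cells and Gkn2 in parietal cells. Krt20, a keratin of differentiated surface cells, read 657 in pit cells, against 32.2 in parietal cells and 8.83 in zymogenic cells, the order also seen for Mxd1. Parietal markers were above the floor in 4 of 13 cases in pit cells, 8 in parietal cells and 6 in zymogenic cells, and zymogenic markers in 2 of 9 cases in pit cells, 4 in parietal cells and 7 in zymogenic cells. Atp4a, the catalytic subunit of the proton pump that defines parietal cells, read 214 in parietal cells, against 12.5 in pit cells and 261 in zymogenic cells. Its partner Atp4b read 4402 in parietal cells, against 102 in pit cells and 793 in zymogenic cells, and Atp4b, Car2 and Clic6 were called higher in parietal cells. Of 8 markers of isthmus progenitors, 3 were above the floor in pit cells, 3 in parietal cells and 1 in zymogenic cells. Stmn1, a tubulin-binding protein of dividing cells, read 119 in parietal cells, against 26.3 in pit cells and 18.3 in zymogenic cells. Tubb5 was also called higher in parietal cells. The further probe sets of Stmn1 and Tubb5 were under the floor on all 3 arrays. Runx1 was not called and read 38.8 in pit cells, against 29.8 in parietal cells and 27.1 in zymogenic cells. The parietal array also held the highest value of Mki67, and the part of progenitor RNA in it was not tested. Endocrine markers were above the floor in 5 of 8 cases in zymogenic cells, against 1 in pit cells and 0 in parietal cells, and their part in the values of Ccnd2 and Trp53inp1 was not tested. Immune markers summed to 107 in pit cells, 218 in parietal cells and 235 in zymogenic cells, and those of mesenchyme and endothelium to 182 in pit cells, 414 in parietal cells and 326 in zymogenic cells.

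Genes with the pattern most like Cdkn1a were sought among 4137 genes by Euclidean distance over the 3 floored log2 values, each gene centred on its own mean. The nearest was Btg1, at a distance of 0.029. It was followed by Pstpip1 and Jakmip1, at 0.029 and 0.032, and by Fmo5 and Tmem43, at 0.083 and 0.095. Each of these 5 genes was above the floor in pit cells alone, so their likeness depends on the floor. Within a distance of 0.5 lay 36 genes, Bnip3 among them at 0.38, while Mxd1 lay at 1.70. With 3 arrays such a likeness rests on 3 values.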

How the data were processed

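RNA of laser-captured pit, parietal and zymogenic cells was hybridised to 1 array each, per the labels. Each deposited value is a linear intensity of a probe set. The sources used here do not give how probes were summarised, corrected for background and scaled. The design text names total RNA and the molecule label nuclear RNA. RNA was amplified from 20 ng, and amplification can lose 5′ ends, which lowers probe sets lying far upstream in a transcript. Array medians were 4.64 (pit), 4.50 (parietal) and 4.81 (zymogenic), and 2616 (pit), 2809 (parietal) and 2285 (zymogenic) genes exceeded the floor. The BioB and BioC hybridisation controls averaged 712 (pit), 303 (parietal) and 711 (zymogenic), an offset that the Cre control did not show, at 9268 (pit), 9453 (parietal) and 9117 (zymogenic). Precision is limited by the number of arrays.

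Of 45101 probe sets, 34958 name 1 gene in the platform's gene table, and 932 that name several were left out. Symbols of 34754 were updated through RefSeq (GRCm38). Some listed genes were not analysed here. By rule, the text names all members and the 5 genes most like Cdkn1a. Genes of each arrest or division list were named when at least 2-fold above or below both other arrays. For the CDK inhibitor, BTG/TOB and MYC lists, genes above the floor were named too. Called markers of cell types are named only in part, and neck markers are not described. Gabarap, Phlda3, Cdca8, Cdca3 and the genes given only as under the floor were chosen after their values were seen. The same holds for Ei24, Aen, Tigar, Ccng1, Mad2l1, Hmmr and Runx1. Members, lists, floor and settings were chosen with earlier results of these data known. With 1 array per lineage no test was run. Alternatives were other scalings, floors, probe set choices and a 4-fold threshold. Calculations ran in Python 3.11.15 (pandas 2.3.3, numpy 2.4.6) and plots in matplotlib 3.10.9.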

Additional observations from a re-analysis of the deposited data

How the results depend on the processing

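No paired analysis was possible because each lineage has 1 array and no value comes from a test. The count of 4 growth arrest genes highest in pit cells was 4 in each setting tried except with transcript-specific probe sets (3) and with a floor of 868 from the receptors' 99th percentile, above which no member lay, so that every count and median was 0. It was also 4 without the zymogenic or without the parietal array, comparisons added after the data were seen. Leaving out an array only loosens the rule, and Cdkn1b and Btg2 were under the floor in pit cells. That count was therefore fixed in advance and is no check. The median log2 ratio over these 6 genes, 2.32 for pit minus parietal, was 1.10 after scaling by the hybridisation controls BioB and BioC, 1.76 with the floor as a pseudocount, 1.76 when probe sets were averaged and 1.16 with transcript-specific ones. For pit minus zymogenic it was 1.80 and 1.18 in the last pair of settings. For parietal minus zymogenic it was 1.15 with the controls.

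Proliferation genes above both others in parietal cells numbered 3 with the controls and 2 with a floor taken at the 90th percentile, where 1 was above both in pit cells. At that floor 1 arrest gene was above both in zymogenic cells and 5 were above the floor there. With the mean over probe sets 1 arrest gene was above the floor in zymogenic cells and 1 proliferation gene in pit cells, as was 1 with transcript-specific probe sets.

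In the wider lists, arrest-side genes above both others in zymogenic cells, 2 as deposited, numbered 4 after quantile normalization and 1 with 1 median, the controls, the pseudocount, the mean, transcript-specific probe sets and 4-fold. On the pit array, also 2 as deposited, they numbered 0 with the controls and transcript-specific probe sets and 1 at 4-fold, and in parietal cells, 0 as deposited, 9 with the controls and 1 at the lower floor. Division-side genes in parietal cells, 1 as deposited, numbered 11 with the controls, 3 at the lower floor, 2 with 1 median and 0 with transcript-specific probe sets or 4-fold. On the zymogenic array, 4 as deposited, they numbered 1 with the controls, the mean or 4-fold. Counts for parietal cells therefore depended on the offset of those controls, whose bearing on other probe sets was not tested. The highest values of Rrm1, Tpx2 and Btg2 were at most 1.24-fold above the floor of 23.3, and those of Cdkn1b lay below it. That is too little signal over background to order the arrays.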
